A study of Mus musculus with 88 samples.

Results

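Unstimulated bone marrow-derived dendritic cells were followed for 24 h in culture, and total protein at 12 h and 24 h after replating was compared with that at 0 h. The comparison took the mock runs of a pulsed SILAC mass spectrometry series at 12 h (2 runs), 24 h (2 runs) and 0 h (2 runs), which are 12 of its 88 samples, since each run holds an M and an H channel sample. All 6 runs came from GM-CSF cultures of bone marrow from female C57BL/6J mice with no genetic change named, and the series also holds cells given 100 ng per ml of lipopolysaccharide (LPS) and 16 mock runs at 0.5 to 9 h. Mock meant that no stimulus was given. At day 9 of culture, which is 0 h, the M-labelled cells were pooled, pelleted, placed in medium with heavy amino acids and spread on dishes that were not treated for cell attachment, so the time since replating and the time in new medium are the same variable here. Whether replicates 1 and 2 were separate cultures is not stated in the labels, so each p-value reflects run-to-run spread that may be technical. The protocol text covers harvests to 12 h and does not describe the handling of the 24 h dishes.

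GM-CSF cultures of mouse bone marrow are mixed: beside CD11c+ MHC class II+ cells they hold macrophage-like cells and remaining granulocytes and precursors, and cells stop dividing as they mature. Macrophages and dendritic cells take up particles and lipoproteins and break them down in lysosomes, whose acid hydrolases are made in the endoplasmic reticulum (ER) and work behind a membrane acidified by a proton pump. In pulsed SILAC the mass of the amino acids dates a protein: the M form was made before 0 h and the H form after it, and both are read against an unlabelled (L) mix of such cells added to every run. Total protein is the sum of the M/L and H/L ratios divided by a run factor, so 1 is the typical protein of a run. Changes are differences in log2 of this scaled total, late (the mean of 12 h and 24 h) minus 0 h unless another pair of times is named, with the standard error (SE) of the fit. A protein was called at a limma adjusted p under 0.05.

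The runs were not equal in depth, and the run factor moved with time. M/L peptide pairs numbered 93754 to 107773 at 0 h, 79621 to 82729 at 12 h and 68083 to 76972 at 24 h. The run factor was 0.823 and 1.15 at 0 h, 0.691 and 0.969 at 12 h, and 0.624 and 0.783 at 24 h in replicates 1 and 2, so protein from the labelled cells fell against the light mix in both replicates, by 0.40 and 0.56 on the log2 scale at 24 h. Without the factor the median change of all tested proteins was -0.36, and all changes below are relative to the typical protein of the run. What moved the factor was not tested. H protein made up 13.1 to 14.5% of the total at 0 h, before any heavy label, which is background, 20.1 to 21.9% at 12 h and 30.0 to 30.1% at 24 h.

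Defining markers were checked next. Of 8 dendritic cell markers, CD11c (Itgax), the MHC class II chains H2-Aa and H2-Ab1 and the invariant chain Cd74 had values in all 6 runs, H2-Eb1 had 1 value, Cd86 had none, and Flt3 and Ccr7 were not among the protein groups. Of 6 macrophage markers, the receptors Csf1r, Mrc1 and Fcgr1 were in all 6 runs. Neutrophil markers were prominent: S100a8, a calcium-binding protein of neutrophil cytosol, stood at percentile 99.7 of the M iBAQ values at 0 h, a measure of abundance per possible peptide, and 6 of 9 neutrophil markers were in all 6 runs. The scaled totals of those 6 summed to 15.7 and 15.3 at 0 h, 13.3 and 13.4 at 12 h, and 12.6 and 13.3 at 24 h. The fall lay mainly in S100a8 and S100a9, with means of 2.73 and 2.76 at 0 h and 1.23 and 1.02 at 24 h. Ltf was also lower (3.07 at 0 h and 2.74 at 24 h). Going the other way, Camp was at 2.85 and 3.17, Ngp at 2.08 and 2.72, and Mpo at 1.96 and 2.09. The 2 measured eosinophil markers summed to 1.73 and 1.68 at 0 h, 1.28 and 1.24 at 12 h, and 0.815 and 0.752 at 24 h. The 3 macrophage markers summed to 3.05 and 3.03 at 0 h, 3.45 and 3.70 at 12 h, and 3.98 and 3.39 at 24 h, and the 4 dendritic cell markers to 3.72 and 3.12, 4.35 and 3.78, and 5.08 and 4.32 at the same times. None of 4 lymphocyte and 4 erythroid markers had a value. In such bulk lysates fewer cells of a type and less protein per cell cannot be told apart, and the part of these shifts in the changes below was not tested.

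Of 3178 proteins tested, 756 changed late (23.8%), 442 higher (13.9%) and 314 lower (9.88%). Most changes were small: 32 called proteins moved by 2-fold or more, 25 of them up. In 669 proteins (21.1%) all late values lay above both 0 h runs, and in 600 (18.9%) all lay below, so 39.9% of proteins did not overlap between late and 0 h. Higher calls were 58.5% of all calls, against 43.8% of 16 calls without the run factor. With the replicate number as a block and no factor the share was 5.50% of 1835 calls, so the split between higher and lower belongs to the scale relative to the typical protein. Leaving out replicate 1 at 0 h left 413 calls and leaving out replicate 2 at 0 h left 414. With the 6 runs alone in the fit, 277 proteins were called. Among the gene lists, higher calls came to 36 of 41 lysosomal hydrolases, 10 of 13 macrophage proteins, 9 of 14 histones and 25 of 55 oxidative phosphorylation subunits (35, 8, 5 and 11 with the 6 runs alone). Lower calls came to 14 of 23 replication proteins, 8 of 22 cytosolic chaperones and 14 of 42 translation factors (8, 3 and 2 with the 6 runs alone), as the plot of list members shows. By summed intensities the same lists, in the same order, held 28, 4, 7 and 5 higher calls and 4, 2 and 4 lower calls.

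**Figure D1:**
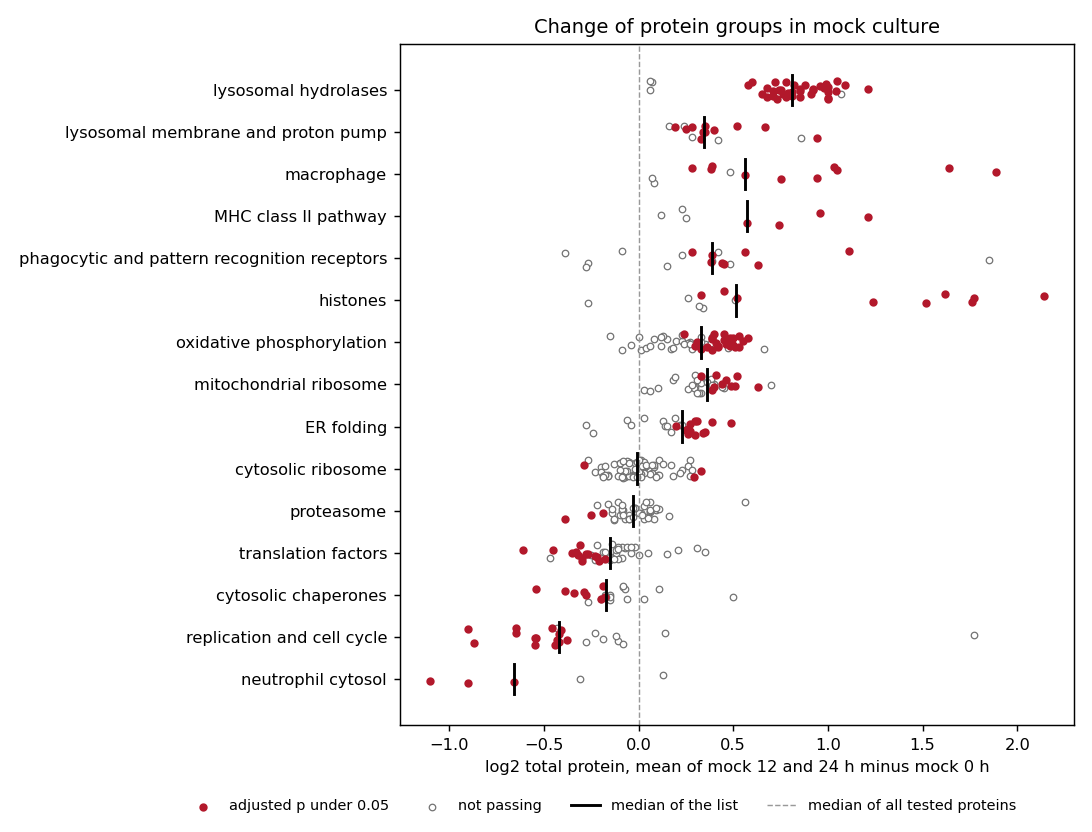
Each point is 1 protein of a gene list (rows), placed by its log2 change in scaled total protein, mean of mock 12 h and 24 h minus mock 0 h. Filled points passed at an adjusted p under 0.05, black bars mark the list medians and the dashed line the median of all tested proteins, 0.00. The lysosomal hydrolases have a median of 0.81 and range from 0.06 to 1.21, and 6 linker histones lie beyond 1.2. Without the run factor the medians of the lysosomal membrane, oxidative phosphorylation, mitochondrial ribosome and ER folding lists were -0.02, -0.02, -0.00 and -0.14.

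Lysosomal hydrolases, the enzymes that digest proteins, sugars and lipids in the lysosome, moved together. Of 41 tested, 36 rose and 0 fell, with a median change of 0.81 and a range of 0.06 to 1.21. Cathepsin S (Ctss), the protease that trims the invariant chain for antigen presentation, had scaled totals of 0.587 and 0.560 at 0 h, 1.00 and 1.07 at 12 h, and 1.59 and 1.80 at 24 h. Every later run lay above the earlier ones, and the late change was 1.21 ± 0.07 (adjusted p = 1.18e-07). The α-mannosidase Man2b1 was 0.671 and 0.690 at 0 h, 1.06 and 1.09 at 12 h, and 1.51 and 1.53 at 24 h, with replicates close at each time and a change of 0.91 ± 0.05 (adjusted p = 5.82e-08). The 5′ exonuclease Pld3 rose by 0.98 ± 0.05, the asparaginyl protease Lgmn by 0.96 ± 0.10, and lysosomal acid lipase (Lipa), which frees cholesterol from its esters, by 0.85 ± 0.08. Of the 41, 33 had already risen at 12 h against 0 h (154 of all proteins, 4.85%), and 30 rose again at 24 h against 12 h (132 of all, 4.15%). Without the run factor the list's median was 0.45, with 0 of 41 called without a block and, with the replicate block, 35 higher and 1 lower.

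Most of the hydrolase rise lay in the M form, the protein made before 0 h. The scaled M part was higher late than at 0 h in 38 of 41 hydrolases, against 888 of all 3178 proteins (27.9%), with a median log2 M change of 0.64 against -0.20 over all proteins. Ctss had M parts of 0.529 and 0.512 at 0 h, 0.879 and 0.914 at 12 h, and 1.25 and 1.42 at 24 h. Pld3 differed: its M part was 0.441 and 0.443 at 24 h, against 0.517 and 0.504 at 0 h, and its H part supplied the rise, at 69.5% of the total at 24 h. The M part of Lipa was 0.639 and 0.607 at 24 h, against 0.602 and 0.543 at 0 h. What raised the M ratios after the switch was not tested.

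Promoters of this list were searched for the CLEAR element, the E-box to which TFEB and its relatives bind at lysosomal genes. In RefSeq promoters of build GRCm38.p6, from 250 bases before the gene start up to it and on both strands, TCACGTGA stood in 4 of 37 entries (10.8%) of 32 matched hydrolase genes, against 0.785% of all 32851 entries. The shorter core CACGTG, which TCACGTGA contains, stood in 10 of the 37 (27.0%), against 6.02% of all. A match is a description of these letters, not of a bound site. All matched members were searched, called or not, so these shares describe the list and do not bear on its change in culture. A link between motif and change was not tested. The 4 promoters with the longer match are shown in windows of 100 bases, 5′ to 3′ on the gene's strand, with TCACGTGA in capitals. Ctsa, Ctsd, Gla and Dpp7 were chosen for this motif after their values were seen.
Dpp7, chr2:25356353-25356452, minus strand: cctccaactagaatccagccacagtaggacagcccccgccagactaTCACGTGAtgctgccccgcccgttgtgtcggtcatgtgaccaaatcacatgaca
Ctsa, chr2:164833673-164833772, plus strand: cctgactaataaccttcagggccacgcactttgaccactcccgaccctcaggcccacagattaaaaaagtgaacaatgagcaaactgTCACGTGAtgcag
Ctsd, chr7:142387873-142387972, minus strand: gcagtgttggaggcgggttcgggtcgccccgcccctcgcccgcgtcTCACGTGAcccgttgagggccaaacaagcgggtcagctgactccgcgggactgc
Gla, chrX:134601156-134601255, minus strand: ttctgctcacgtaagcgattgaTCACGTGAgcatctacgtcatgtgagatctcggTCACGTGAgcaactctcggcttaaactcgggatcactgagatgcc
The proteins of these 4 genes lay inside the list's range. Cathepsin A (Ctsa), a carboxypeptidase, rose by 1.04 ± 0.09, α-galactosidase (Gla) by 1.00 ± 0.09, and the aspartic protease cathepsin D (Ctsd) by 0.92 ± 0.08. The dipeptidyl peptidase Dpp7 rose by 0.88 ± 0.05, although summed intensities gave -0.026 for Dpp7.

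In the lysosomal membrane and its proton pump 11 of 16 tested rose and 0 fell, with a median of 0.34, or -0.02 without the run factor. With the 6 runs alone in the fit 6 rose, and by summed intensities 1 did. Cd68, a heavily glycosylated lysosomal membrane protein of macrophages, was 0.723 and 0.714 at 0 h, 1.38 and 1.44 at 12 h, and 1.59 and 1.16 at 24 h. Its 12 h and 24 h values overlapped above the 0 h runs, and it rose late by 0.94 ± 0.16 (adjusted p = 0.000924). The pump subunit Atp6v1a was 0.768 and 0.782 at 0 h, 0.890 and 0.914 at 12 h, and 1.06 and 1.11 at 24 h, a change of 0.35 ± 0.05 (adjusted p = 0.000197) that became -0.015 without the factor. Psap, the precursor of the saposins that help hydrolases reach lipids, rose by 0.71 ± 0.05, and Grn, the lysosomal and secreted progranulin, by 0.80 ± 0.06. Both belong to a list of complement and secreted proteins, of which 7 of 16 rose and 2 fell (median 0.40, or 0.03 without the run factor, with 1 lower without either 0 h run).

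The enzyme Lpl (lipoprotein lipase), which releases fatty acids from circulating lipoproteins, and 2 secreted macrophage proteins stood among the highest rises. Lpl was 0.449 and 0.407 at 0 h, 1.41 and 1.49 at 12 h, and 1.96 and 1.96 at 24 h, a change of 1.98 ± 0.08 (adjusted p = 6.53e-09). Mmp12, the macrophage elastase, was 0.525 and 0.590 at 0 h, 1.63 and 1.66 at 12 h, and 2.50 and 2.66 at 24 h, and rose by 1.89 ± 0.10 (adjusted p = 8.48e-08). Apoe, a lipoprotein component that macrophages secrete, was 0.859 and 0.714 at 0 h, 2.03 and 2.07 at 12 h, and 3.19 and 2.64 at 24 h, and rose by 1.64 ± 0.13 (adjusted p = 2.16e-06). In all 3 the late runs lay far above the 0 h runs. Unlike the hydrolases, they rose as new protein: H made up 77.4% of Lpl, 83.1% of Mmp12 and 72.2% of Apoe at 24 h, and the M part of Lpl was 0.438 and 0.449 at 24 h, against 0.334 and 0.307 at 0 h.

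Among 14 proteins of lipid uptake and storage, 7 rose and 2 fell, with a median of 0.35 that was -0.02 without the run factor, and 1 fell without either 0 h run, without replicate 2 at 12 h or without replicate 2 at 24 h. The scavenger receptor Cd36, which takes up oxidised lipoproteins and fatty acids, was 0.680 and 0.775 at 0 h, 1.07 and 1.03 at 12 h, and 2.71 and 2.03 at 24 h, so most of its rise of 1.11 ± 0.14 (adjusted p = 9.15e-05) came after 12 h. Lrp1, a large receptor for lipoproteins and proteases, rose by 0.63 ± 0.06 (adjusted p = 7.52e-06). The lipid droplet coat protein Plin3 went the other way, at 1.27 and 1.12 at 0 h, 0.905 and 0.890 at 12 h, and 0.686 and 0.643 at 24 h, and fell by 0.63 ± 0.06 (adjusted p = 1.18e-05). Of 9 sterol synthesis enzymes 3 fell and 0 rose, among them the farnesyl diphosphate synthase Fdps by 0.58 ± 0.06. Over all proteins 9.88% were called lower and 13.9% higher. Of 9 proteins of fatty acid synthesis 1 rose (0 without replicate 2 at 0 h) and 2 fell, Acly, which makes cytosolic acetyl-CoA, by 0.36 ± 0.05 and fatty acid synthase (Fasn) by 0.22 ± 0.05.

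**Figure D2:**
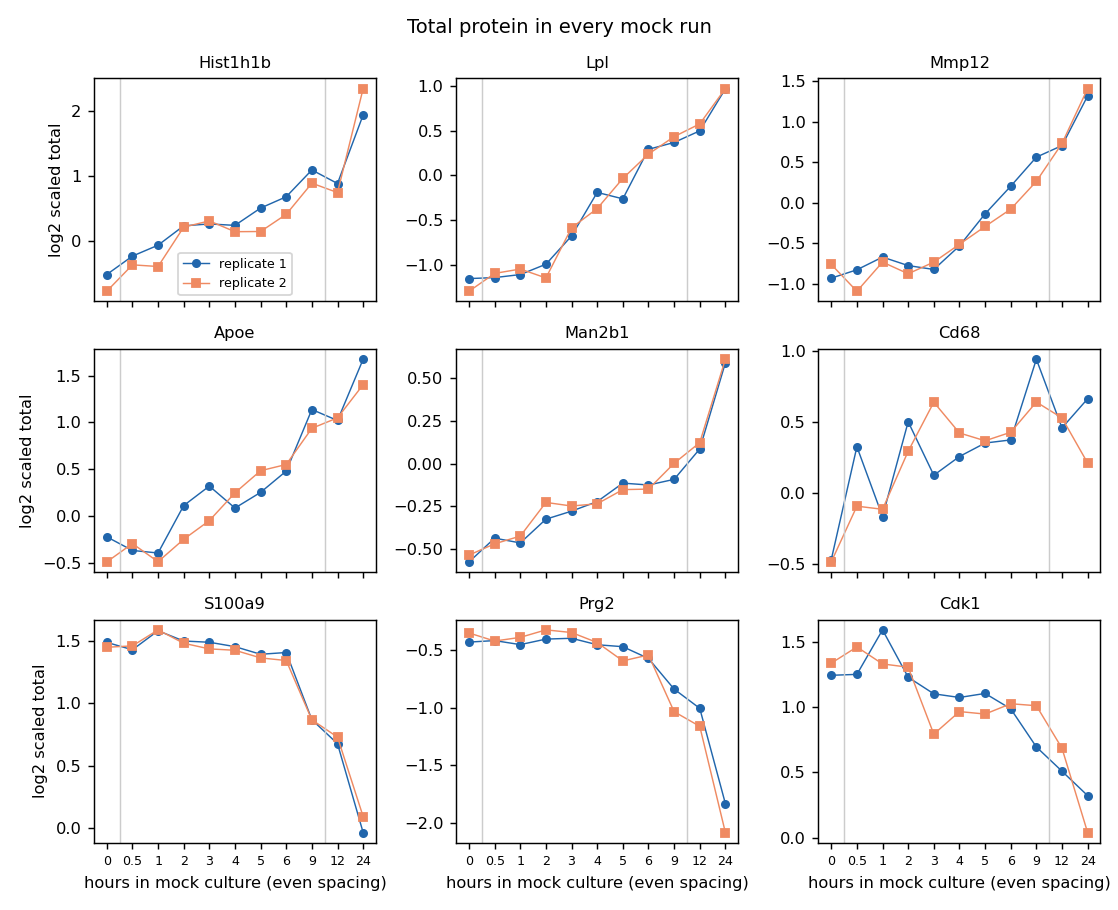
Log2 scaled total protein of 9 proteins in all 22 mock runs, with hours in culture at even spacing and the replicates as separate lines. Grey lines part the 0 h, 0.5 to 9 h and late runs. Hist1h1b, Lpl, Mmp12 and Apoe ended far above their 0 h values. By mean scaled total Lpl climbed at every step, while Hist1h1b, Mmp12 and Apoe did not. The mean scaled total of Mmp12 was 0.557 at 0 h and 0.583 at 3 h, and that of Hist1h1b 2.0 at 9 h and 1.77 at 12 h. Man2b1 climbed more from 9 h to 24 h, and S100a9, between 2.53 and 3.00 up to 6 h, was at 1.82 in both runs at 9 h.

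Macrophage proteins as a list rose in 10 of 13 tested, with 0 lower and a median of 0.56, and 6 rose without replicate 1 at 0 h. Lysozyme (Lyz2), which cleaves bacterial cell walls, rose by 0.75 ± 0.05 (adjusted p = 6.06e-07). C1qb, a chain of the complement starter C1q, was 0.656 and 0.649 at 0 h, 1.24 and 1.12 at 12 h, and 1.51 and 1.49 at 24 h, and rose by 1.03 ± 0.10 (adjusted p = 7.33e-06). Its M part was lower late, 0.417 and 0.381 at 24 h against 0.598 and 0.565 at 0 h, so the rise of the total lay in the H part. The mannose receptor Mrc1 passed at 0.38 ± 0.11 (adjusted p = 0.0288), a call that was lost without either 0 h run (adjusted p = 0.0856 without replicate 1 and 0.187 without replicate 2), and without replicate 1 at 12 h or at 24 h (0.0645 and 0.0795).

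In the M-CSF receptor Csf1r the M and H parts moved in opposite directions. The medians over all tested proteins did so too, at -0.107 for scaled M and 0.106 for scaled H, late minus 0 h. The total of Csf1r was 1.54 and 1.67 at 0 h, 1.6 and 1.93 at 12 h, and 1.75 and 1.56 at 24 h, and the groups overlapped. Its M part was 0.415 and 0.585 at 12 h, against 1.36 and 1.45 at 0 h, while its H part was 1.18 and 1.35 at 12 h, against a background of 0.181 and 0.218 at 0 h. The total did not pass (0.08 ± 0.11, adjusted p = 0.652). Of 18 phagocytic and pattern recognition receptors 8 rose and 0 fell, with a median of 0.39, or 0.03 without the run factor. The count that rose was 2, 4 and 5 without replicate 1 at 0 h, replicate 2 at 0 h and replicate 1 at 24 h. It was 4 with the 6 runs alone in the fit and 1 by summed intensities. The LPS co-receptor Cd14 was 0.385 and 0.446 at 0 h, 0.510 and 0.585 at 12 h, and 0.701 and 0.668 at 24 h, and rose by 0.56 ± 0.13 (adjusted p = 0.00713). Sirpa, the receptor for CD47 that restrains phagocytosis, rose by 0.45 ± 0.10. Both calls were lost without replicate 1 at 0 h (adjusted p = 0.096 for Cd14 and 0.103 for Sirpa).

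MHC class II proteins were mixed. Of 7 pathway members 4 rose and 0 fell (median 0.57), and none of the 4 is a class II chain. They were Ctss and Lgmn above, the thiol reductase Ifi30 at 0.74 ± 0.12, and the invariant chain Cd74 at 0.57 ± 0.12 (adjusted p = 0.00347, and 0.0566 without replicate 2 at 0 h). The class II chain H2-Aa was 1.04 and 0.837 at 0 h, 1.27 and 1.01 at 12 h, and 1.20 and 0.926 at 24 h, and H2-Ab1 was 0.823 and 0.587, 0.964 and 0.709, and 0.974 and 0.697. Replicate 1 was above replicate 2 at each time in both, and within each replicate number both late values lay above the 0 h value. Neither passed (0.23 ± 0.20 and 0.25 ± 0.24). CD11c (Itgax) was 0.909 and 0.855 at 0 h, 0.878 and 0.919 at 12 h, and 1.33 and 1.30 at 24 h, with a late change of 0.30 ± 0.15 (adjusted p = 0.188) that was -0.063 without the factor. Of 5 proteins of dendritic cell maturation, 0 passed limma's test late (1 at an unadjusted p under 0.05), and 1 passed without replicate 1 at 12 h. At 24 h against 0 h 2 of the 5 rose, Itgax by 0.58 (adjusted p = 0.0268) and fascin (Fscn1), which bundles actin in mature dendritic cells, by 0.62 (adjusted p = 0.0308).

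The linker histones, which bind DNA between nucleosomes, gave the highest change of all called proteins. Hist1h1b (H1.5) was 0.696 and 0.581 at 0 h, 1.85 and 1.68 at 12 h, and 3.86 and 5.11 at 24 h. Replicates differed more at 24 h than at 12 h, yet every later time lay above the earlier one, and the late change was 2.14 ± 0.14 (adjusted p = 4.41e-07). Hist1h1c rose by 1.77 ± 0.14, Hist1h1d by 1.76 ± 0.13, Hist1h1e by 1.62 ± 0.14 and Hist1h1a by 1.52 ± 0.17. H1f0, the linker histone of resting cells, was 0.8 and 1.79 at 0 h, 2.05 and 1.93 at 12 h, and 3.50 and 4.52 at 24 h, and its call (1.24 ± 0.34, adjusted p = 0.0182) was lost without replicate 1 at 0 h (0.66, adjusted p = 0.285). Of 14 histones in all, 9 rose and 0 fell (median 0.51, or 0.15 without the run factor, with 1 lower without replicate 1 at 0 h), and the 3 called core histone groups rose by 0.33 to 0.52. Histone sequences are alike, and peptides shared among H1 variants may join their values.

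The rise of H1 lay almost wholly in the M form. In Hist1h1b the M part was 0.583 and 0.496 at 0 h, 1.64 and 1.59 at 12 h, and 3.64 and 4.95 at 24 h, a 24 h over 0 h ratio of 7.95, and of 5.83 before the run factor. The H part of Hist1h1b was 0.219 and 0.169 at 24 h, against 0.112 and 0.0852 at 0 h, and H was 4.49% of the total at 24 h. The ratios rested on 25 to 51 peptide pairs per run. All 14 histones had a higher M part late than at 0 h, against 27.9% of all proteins. The cause of a rising ratio in protein labelled before 0 h was not tested.

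**Figure D3:**
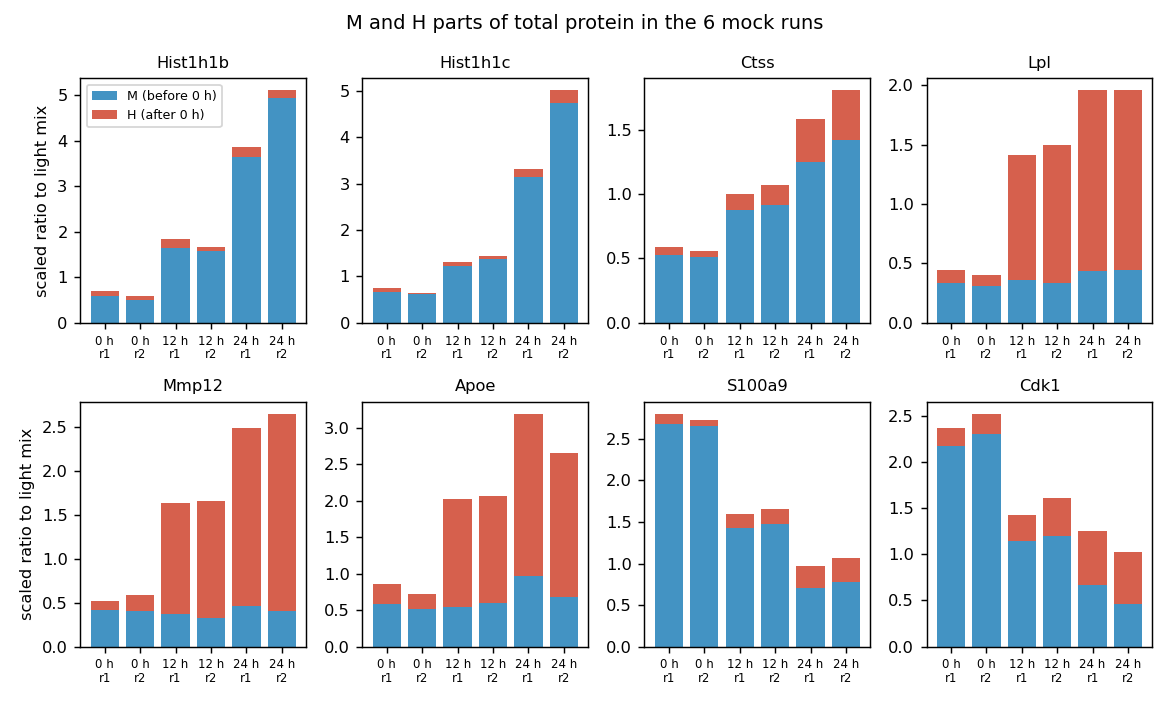
Scaled ratio to the light mix of the M form (made before 0 h) and the H form (made after 0 h), stacked, in each of the 6 mock runs (r1 and r2 are the replicates). Hist1h1b, Hist1h1c and Ctss rise in the M form, Lpl, Mmp12 and Apoe in the H form, while S100a9 and Cdk1 lose M protein that H does not make up. The H values at 0 h are background.

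Both mitochondrial lists held higher calls and no lower ones. Of 55 oxidative phosphorylation subunits 25 rose and 0 fell (median 0.33), and of 35 mitochondrial ribosomal proteins 10 rose and 0 fell (median 0.36), and without the run factor the medians were -0.02 and -0.00. With the 6 runs alone in the fit 11 subunits and 3 ribosomal proteins rose, and by summed intensities 5 and 2 did. Cox5a, a subunit of cytochrome c oxidase, was 0.930 and 0.921 at 0 h, 1.20 and 1.32 at 12 h, and 1.45 and 1.59 at 24 h, and rose by 0.58 ± 0.07 (adjusted p = 8.57e-05). Uqcrc1 of complex III rose by 0.53 ± 0.07, Atp5b, the catalytic β subunit of ATP synthase, by 0.51 ± 0.07, and the ribosomal proteins Mrpl12 and Mrpl40 by 0.51 ± 0.07 and 0.46 ± 0.06. Without replicate 1 or 2 at 0 h 15 and 14 subunits of oxidative phosphorylation rose, and 6 ribosomal proteins in either case. The M part was higher late in 50 of the 55 subunits and in 35 of the 35 ribosomal proteins, against 27.9% of all proteins. Hexokinase 2 (Hk2), the glycolysis enzyme that docks on mitochondria, rose by 0.57 ± 0.09, while 5 of the 15 glycolytic proteins fell, among them glucose-6-phosphate isomerase (Gpi) by 0.25 ± 0.06, a call lost without replicate 2 at 0 h (adjusted p = 0.0791). The 5 falls became 1 and 0 without replicate 1 or 2 at 0 h, 2 without replicate 1 at 12 h, 3 without replicate 1 at 24 h and 0 with the 6 runs alone in the fit.

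Calls among folding proteins were higher in the ER list and lower in the cytosolic list. In the ER list 13 of 25 rose and 0 fell, with a median of 0.23 that turned to -0.14 without the run factor, and without replicate 1 or 2 at 0 h 8 and 5 rose. With the 6 runs alone in the fit 0 of the 25 passed, and by summed intensities 2 rose. The ER chaperones Hspa5 (BiP), Hsp90b1 and Calr rose by 0.27 ± 0.05, 0.31 ± 0.05 and 0.35 ± 0.06, and the disulfide isomerase Pdia3 by 0.30 ± 0.05, and these 4 turned to -0.096, -0.054, -0.014 and -0.068 without the factor. Of 22 cytosolic chaperones 8 fell and 0 rose (median -0.17), and 5, 4 and 5 fell without replicate 1 at 0 h, replicate 2 at 0 h and replicate 1 at 12 h, and 3 with the 6 runs alone in the fit. Hsph1, which reloads Hsp70, was 1.15 and 1.10 at 0 h, 0.848 and 0.779 at 12 h, and 0.725 and 0.743 at 24 h, and fell by 0.54 ± 0.06 (adjusted p = 6.82e-05), although summed intensities gave 0.599. Hsp90ab1, the constitutive cytosolic Hsp90, fell by 0.29 ± 0.05.

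In the translation machinery the initiation and elongation factors held more calls than the ribosome. Of 42 translation factors 14 fell and 0 rose (median -0.15), with Eif1, which helps select the start codon, down by 0.61 ± 0.09 and Eif3l by 0.31 ± 0.07. Without replicate 1 at 0 h 7 fell and 1 rose, and without replicate 2 at 0 h 4 fell, and 2 with the 6 runs alone in the fit. Eif1 was 0.944 and 0.965 at 0 h, 0.736 and 0.689 at 12 h, and 0.585 and 0.513 at 24 h. Of 70 cytosolic ribosomal proteins 2 rose and 1 fell (median -0.01), and of 42 proteasome subunits 3 fell and 0 rose (median -0.03), shares below those of all proteins. Leaving out any 1 run gave 0 to 4 calls in each direction in both lists, and the 6 runs alone in the fit gave 0. Of 23 aminoacyl-tRNA synthetases 1 fell and 0 rose, and it did not pass without either 0 h run or without replicate 1 at 24 h. In the amino acid starvation list 4 of 10 rose and 2 fell (median 0.01), and 0 rose without replicate 1 at 0 h, while 2 rose without replicate 2 at 0 h, 12 h or 24 h, and 1 fell without replicate 2 at 0 h. The 2 that fell make serine: Psat1 by 0.48 ± 0.09 and Phgdh by 0.30 ± 0.06, the call of Phgdh being lost without replicate 2 at 0 h (adjusted p = 0.0749). Slc3a2, the heavy chain of amino acid exchangers, was 0.420 and 0.479 at 0 h, 0.518 and 0.553 at 12 h, and 0.779 and 0.709 at 24 h, and rose by 0.49 ± 0.12 (adjusted p = 0.00847, and 0.106 without replicate 1 at 0 h).

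Of 39 actin and focal adhesion proteins 6 fell and 0 rose (median -0.02), and 3 fell without either 0 h run, while 4 fell without replicate 2 at 24 h, 2 fell with the 6 runs alone in the fit and 1 rose without replicate 1 there. Zyxin (Zyx), which marks adhesions under tension, was 1.34 and 1.34 at 0 h, 1.04 and 1.13 at 12 h, and 0.815 and 0.775 at 24 h, and fell by 0.53 ± 0.09 (adjusted p = 0.000768). The actin-binding protein Tagln2 fell by 0.39 ± 0.06. Over all proteins 9.88% were called lower. Of 13 integrins, tetraspanins and adhesion proteins 1 rose, the integrin chain Itgam, and 0 rose without replicate 2 at 0 h or replicate 1 at 24 h. Of 38 hnRNP and SR splicing proteins 9 rose and 1 fell, with a median of 0.18 that was -0.19 without the run factor, and 4 and 5 rose without replicate 1 or 2 at 0 h, where 0 fell, and 2 rose with the 6 runs alone in the fit. The spliceosome core protein Snrpd3 was 0.974 and 1.05 at 0 h, 1.25 and 1.37 at 12 h, and 1.41 and 1.6 at 24 h, and rose by 0.47 ± 0.10 (adjusted p = 0.00341).

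Of 23 replication and cell cycle proteins 14 fell and 0 rose, with a median of -0.42 and a range of -0.90 to 1.77. The M part was higher late in 0 of the 23, against 27.9% of all proteins. Without replicate 1 at 0 h 8 fell, and without replicate 2 at 12 h 1 rose. Cdk1, the kinase that drives entry into mitosis, was 2.37 and 2.53 at 0 h, 1.42 and 1.61 at 12 h, and 1.25 and 1.03 at 24 h. All late runs lay below both 0 h runs, and the change was -0.90 ± 0.12 (adjusted p = 0.000207), from 3 to 5 peptide pairs per run, while summed intensities gave 1.075. Mki67, the Ki-67 antigen, was 2.10 and 1.81 at 0 h, 1.24 and 1.55 at 12 h, and 0.906 and 0.736 at 24 h, and fell by 0.87 ± 0.14 (adjusted p = 0.000681). The tubulin-binding protein Stmn1 fell by 0.55 ± 0.08, the helicase subunit Mcm7 by 0.46 ± 0.05 and the polymerase clamp Pcna by 0.44 ± 0.07. The upper end of the range was Ncaph, a condensin subunit named after its values were seen, at 1.92 and 1.74 at 0 h, 9.61 and 1.35 at 12 h, and 11.7 and 9.99 at 24 h. It did not pass late (1.77 ± 0.77, adjusted p = 0.126), was called higher at 24 h against 0 h (adjusted p = 0.0494) and passed late without replicate 2 at 12 h (adjusted p = 0.0224). Its ratios rested on 2 to 6 pairs per run, the high values lay in the H part, and summed intensities gave 0.389 late. At the edge of detection, 51 proteins had values in both 0 h runs and in no late run, and 16 had values in all 4 late runs and in neither 0 h run, while the late runs held fewer peptide pairs.

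Promoters of the replication list were searched for E2F-type octamers, the motifs of the factors that time S-phase genes. Here too all matched members were searched, called or not, so the share describes the list and not its change in culture. The letters searched were TTTGGCGC, TTTCCCGC, TTTCGCGC and TTTGCCGC on both strands of the same RefSeq windows, and 6 of 24 entries (25.0%) of 20 matched genes held at least 1, against 1.86% of all 32851 entries. The other genes with a match were Mcm6, Mcm5, Dnmt1 and Cdk2, whose windows are not shown. A link between motif and change was not tested. The windows of the replication helicase subunit Mcm7 and of Cdk1, both called lower above, are shown with the matches in capitals, that of Mcm7 being the reverse complement.
Mcm7, chr5:138171995-138172094, minus strand: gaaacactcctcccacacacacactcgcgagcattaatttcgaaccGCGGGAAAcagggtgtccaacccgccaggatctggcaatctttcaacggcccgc
Cdk1, chr10:69352990-69353089, minus strand: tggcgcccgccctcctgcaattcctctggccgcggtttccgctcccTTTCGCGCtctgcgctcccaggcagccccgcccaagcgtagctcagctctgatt

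Granulocyte proteins did not move as 1 group. S100a9, which pairs with S100a8 in neutrophil cytosol, was 2.80 and 2.72 at 0 h, 1.6 and 1.66 at 12 h, and 0.976 and 1.07 at 24 h. Replicates were close and no times overlapped, and S100a9 fell by 1.10 ± 0.05 (adjusted p = 1.33e-08) and S100a8 by 0.90 ± 0.12 (adjusted p = 0.000148). In this list of neutrophil cytosol 3 of 5 fell and 0 rose. Eosinophil major basic protein (Prg2) was 0.742 and 0.784 at 0 h, 0.498 and 0.447 at 12 h, and 0.281 and 0.236 at 24 h, and fell by 1.13 ± 0.08 (adjusted p = 6.23e-07). Eosinophil peroxidase (Epx) was 0.983 and 0.899 at 0 h, 0.783 and 0.796 at 12 h, and 0.534 and 0.516 at 24 h, and fell by 0.55 ± 0.09 (adjusted p = 0.000645). These were the 2 called of 5 tested eosinophil, mast cell and basophil proteins.

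Among neutrophil granule proteins the few calls went in both directions, beside 13.9% of all proteins called higher and 9.88% called lower. With the 6 runs alone in the fit, and likewise by summed intensities, 0 of 7 secondary granule proteins were called. Lactoferrin (Ltf), the iron binder of secondary granules, was 3.02 and 3.12 at 0 h, 2.87 and 2.68 at 12 h, and 2.80 and 2.68 at 24 h (-0.15 ± 0.09, adjusted p = 0.26). Its M part was 0.997 and 0.918 at 24 h, against 2.71 and 2.72 at 0 h, and H made up 65.1% of it at 24 h. Ngp, another secondary granule protein, rose by 0.30 ± 0.06 (adjusted p = 0.00386, and -0.063 without the run factor) with 63.3% H. Myeloperoxidase (Mpo) of primary granules was 1.88 and 2.05 at 0 h, 2.08 and 2.33 at 12 h, and 1.96 and 2.23 at 24 h and did not pass. The antimicrobial peptide precursor Camp was at -0.01 ± 0.12, and the iron carrier Lcn2 passed at -0.29 ± 0.08 (adjusted p = 0.0231), a call lost without any of 4 runs (adjusted p = 0.0523 to 0.148 without a 0 h run, replicate 2 at 12 h or replicate 1 at 24 h). With Chi3l3, a chitinase-like lectin, at -0.24 ± 0.07 (adjusted p = 0.0176, and lost without either 0 h run at 0.0841 and 0.11), 1 of 7 secondary granule proteins rose and 2 fell, 0 without either 0 h run and 1 without replicate 2 at 12 h or replicate 1 at 24 h. Platelet factor 4 (Pf4), a chemokine of platelet granules, was 1.05 and 1.06 at 0 h, 1.61 and 1.86 at 12 h, and 1.94 and 2.03 at 24 h, and rose by 0.81 ± 0.09 (adjusted p = 3.5e-05) with 56.8% H at 24 h, from 2 to 6 peptide pairs per run.

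In the stress and inflammatory lists a minority of members passed, beside 13.9% of all proteins called higher and 9.88% called lower. Of 21 pentose phosphate and NRF2 targets 4 rose and 0 fell (median 0.02), with haem oxygenase (Hmox1) at 0.441 and 0.428 at 0 h, 0.622 and 0.646 at 12 h, and 0.755 and 0.862 at 24 h, a rise of 0.72 ± 0.08 (adjusted p = 2.59e-05). Sulfiredoxin (Srxn1), which restores oxidised peroxiredoxins, rose by 0.46 ± 0.05 (adjusted p = 3.5e-05), and catalase (Cat) by 0.34 ± 0.07, or -0.024 without the run factor. Among 19 mediators of inflammation and other NF-kB targets, 5 rose and 1 fell (median 0.26, or -0.11 without the run factor), and 3, 2 and 3 rose without replicate 1 at 0 h (where 0 fell), replicate 2 at 0 h and replicate 2 at 12 h. Mitochondrial superoxide dismutase (Sod2) was 0.496 and 0.477 at 0 h, 0.701 and 0.707 at 12 h, and 0.898 and 0.918 at 24 h, and rose by 0.72 ± 0.06 (adjusted p = 4.71e-06). The autophagy receptor Sqstm1 rose by 0.51 ± 0.07, and interleukin 1α (Il1a) by 0.93 ± 0.25 (adjusted p = 0.0175), a call that was lost without either 0 h run (adjusted p = 0.128 and 0.0699) or replicate 1 at 12 h (0.05). The chemokine Ccl5 was 0.164 and 0.0808 at 0 h, 0.240 and 0.325 at 12 h, and 0.225 and 0.277 at 24 h, and its call (1.20 ± 0.33, adjusted p = 0.0186) was lost without replicate 2 at 0 h (adjusted p = 0.271) or replicate 2 at 12 h (0.0515). Of 42 interferon-stimulated proteins 2 rose and 1 fell, and without replicate 2 at 0 h 0 did either. Of 11 hypoxia proteins 2 rose and 2 fell (median 0.04), and without either 0 h run 1 rose and 0 fell, while 1 rose without replicate 1 at 12 h and 1 rose and 1 fell without replicate 2 at 24 h, and 1 fell without replicate 2 at 12 h. Of 5 iron proteins 0 passed limma's test (2 at an unadjusted p under 0.05). The zinc-binding metallothionein Mt2 was 1.37 and 1.21 at 0 h, 0.903 and 0.814 at 12 h, and 0.613 and 0.6 at 24 h, and fell by 0.83 ± 0.07 (adjusted p = 3.69e-06).

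Several of the lowest and highest changes rested on thin or uneven values. The DNA-binding protein Pura was 0.943 and 0.852 at 0 h, 1.33 and 1.42 at 12 h, and 1.91 and 6.94 at 24 h, so its 1.32 ± 0.40 (adjusted p = 0.0304) leaned on replicate 2 at 24 h, and the call was lost without either 0 h run or either 12 h run (adjusted p = 0.0548 to 0.158). Zbtb8os fell by 1.21 ± 0.30, but its H values at 0 h, before heavy label, were 1.15 and 1.24. Sin3a, a corepressor scaffold, fell by 1.00 ± 0.26 with an H value of 1.08 in replicate 1 at 0 h, and Arpp19, a phosphatase regulator seen by 1 unique peptide, by 0.90 ± 0.24 with an H value of 1.84 there. The calls of Sin3a and Arpp19 were lost without replicate 1 at 0 h (adjusted p = 0.206 and 0.259), that of Zbtb8os without either 0 h run (0.0965 and 0.0798). Nucks1, a chromatin protein, was steadier at 1.45 and 1.71 at 0 h, 1.29 and 1.09 at 12 h, and 0.449 and 0.596 at 24 h, and fell by 1.01 ± 0.12 (adjusted p = 7.75e-05). Hn1 fell by 1.20 ± 0.30 and the protease inhibitor Serpinb1a by 1.01 ± 0.30, and without either 0 h run neither passed (adjusted p = 0.0754 and 0.074 for Hn1, 0.178 and 0.0821 for Serpinb1a), nor did Serpinb1a without replicate 2 at 12 h or at 24 h (0.0706 and 0.0677).

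Over all proteins the form of the change differed by direction. Of the 442 proteins that rose, 384 (86.9%) had a higher M part late, against 888 of all 3178 (27.9%). Their median log2 M change was 0.31, against -0.2 over all proteins. In 252 of the 442 the late minus 0 h difference was larger in M than in H, against 552 of all 3178. Of the 314 that fell, 0 had a higher M part late, with a median of -0.58. A higher H part was common everywhere, in 269 of the 314 and in 2892 of all 3178. M and H enter the total, so these counts describe how the called changes were made up and are no test.

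Calls were also made between the 2 late times. At 12 h against 0 h 228 proteins were called (7.17%), 154 higher (4.85%) and 74 lower (2.33%), and at 24 h against 0 h 926 (29.1%), 535 higher (16.8%) and 391 lower (12.3%), with both comparisons using the same 0 h runs. Between 24 h and 12 h, which share no run, 199 were called (6.26%), 132 higher (4.15%) and 67 lower (2.11%). Leaving out replicate 1 or 2 at 12 h or replicate 2 at 24 h gave 89, 115 and 75 calls. With the 6 runs alone in the fit, and likewise with no run factor, 0 proteins passed limma's test (529 and 96 at an unadjusted p under 0.05). Hist1h1c was 3.31 and 5.01 at 24 h, against 1.32 and 1.44 at 12 h, a difference of 1.56 (adjusted p = 0.000229). Cd36 differed by 1.16 (adjusted p = 0.00119), Prg2 by -0.87 (adjusted p = 0.000229) and S100a9 by -0.67 (adjusted p = 5.7e-05) between 24 h and 12 h. For Csf1r, Cd68 and Mpo this difference was -0.09, -0.06 and -0.07 and did not pass.

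The 16 mock runs from 0.5 to 9 h do not enter the late changes themselves, so their slopes gave a look at direction from other runs. Their spread did enter the fit behind the late calls. With these runs left out of that fit, 277 proteins were called late, against 756. The sets called higher or lower late below were thus chosen partly with these runs. A line over these times was called in 157 of 3338 proteins (4.70%), 90 upward (2.70%) and 67 downward (2.01%). Without replicate 1 the calls were 64 and without replicate 2 they were 9. Of 436 proteins higher late with a slope, 407 (93.3%) had a slope above 0, against 1522 of all 3065 (49.7%), and of 307 lower late 26 (8.47%) did. Of the 436, 78 were called upward and 1 downward over 0.5 to 9 h, and of the 307, 43 were called downward and 0 upward. Lysosomal hydrolases had a slope above 0 in 40 of 40, with 26 called (median 0.04 per hour). Lpl rose by 0.21 per hour (adjusted p = 2.09e-06), Apoe by 0.17, Mmp12 by 0.17 and Hist1h1b by 0.14, while Prg2 and S100a9 fell by 0.058 and 0.066 per hour. Other steep called slopes rested on few peptide pairs and did not go with a late call: Irgm2 rose by 0.16 per hour, and Trappc9, Toe1 and Pqbp1 fell by 0.30, 0.20 and 0.12, with 2 to 8 pairs per run at 0 h, 12 h and 24 h, where none of the 4 passed. Pqbp1 did pass late in other settings, without replicate 2 at 0 h (-1.263, adjusted p = 0.0202), without replicate 1 at 24 h (-0.978, adjusted p = 0.0267) and by summed intensities (-0.99, adjusted p = 0.0319).

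**Figure D4:**
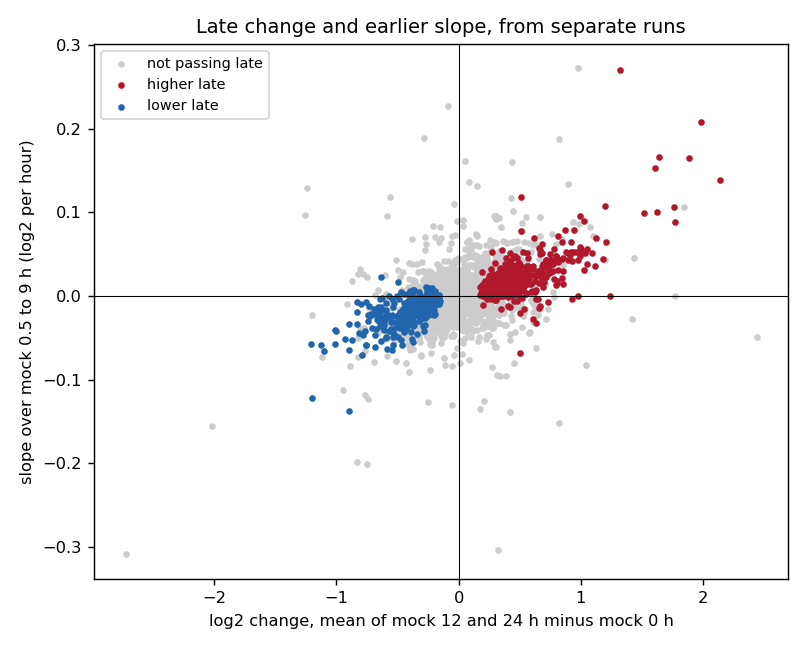
Each point is 1 of 3065 proteins, placed by its log2 change late (mock 12 h and 24 h minus mock 0 h) and by its slope over the 16 mock runs from 0.5 to 9 h in log2 per hour. Red points were called higher late and blue points lower. Red points lie mostly above a slope of 0 (407 of 436) and blue points mostly below it (26 of 307 above).

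LPS runs at 12 h and 24 h were set beside these values to see which part of the drift a stimulated culture shared. LPS and mock late differed in 1177 of 3121 proteins (37.7%), with 573 higher (18.4%) and 604 lower (19.4%) after LPS. In replicates 1 and 2 the run factor of the LPS runs was 0.7258 and 1.6161 at 12 h, and 0.6993 and 0.9729 at 24 h. The value of 1.6161 was the highest of all runs. This comparison was not refitted without the run factor or without any run. Relative to the same 0 h runs, lysosomal hydrolases had a median change of 0.15 after LPS and 0.81 in mock cells, and 37 of 40 were lower after LPS. Histones had medians of 0.03 and 0.51 (12 of 14 lower after LPS), oxidative phosphorylation -0.03 and 0.33 (34 of 53 lower) and macrophage proteins 0.02 and 0.56 (9 of 13 lower, 1 higher). Hist1h1b changed by 0.16 after LPS and 2.14 in mock cells (LPS minus mock -1.97 ± 0.14, adjusted p = 7.64e-11), and Mmp12 by -0.12 and 1.89 (-2.01 ± 0.10, adjusted p = 1.15e-13). Lists with lower calls in mock cells differed in this: translation factors had medians of 0.02 after LPS and -0.15 in mock cells (25 of 42 higher after LPS, 1 lower), cytosolic chaperones -0.01 and -0.17 (15 of 22 higher, 1 lower), and replication proteins -0.41 and -0.42 (2 of 23 higher, 3 lower). Among single proteins that fell in mock cells, S100a9 changed by -0.94 after LPS and -1.10 in mock cells, Prg2 by -1.02 and -1.13, and Cdk1 by -0.82 and -0.90, and of these S100a9 differed (0.16, adjusted p = 0.00582). Prg2 and Cdk1 did not pass (0.11, adjusted p = 0.363, and 0.08, adjusted p = 0.666), which does not show that they changed alike.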

How the data were processed

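Peptides of the 6 mock runs at 12 h, 24 h and 0 h were read from the trypsin table of protein groups. Per the file headers, the authors deposited for each run the SILAC ratio of M/L and of H/L as measured, the count of peptide pairs behind each ratio, and the summed intensity and iBAQ intensity per channel. Column names are those MaxQuant writes, the build listed in the submitters' processing notes is mm9. The sources used here give neither the software version nor the make-up of the light mix. Of 6266 groups, 90 reverse, 97 contaminant and 216 identified by site alone were left out and 5899 kept. To get the run factor, M/L and H/L were added and the median taken over those 2628 proteins whose M/L was present in all 42 runs. Log2 scaled totals were fitted in limma 3.58.1 (R 4.3.3) as means of 11 times over 22 mock runs, with Benjamini-Hochberg adjusted p over all proteins with both 0 h values and at least 3 of 4 late values. The slope used proteins with at least 12 of 16 runs at 0.5 to 9 h. The LPS comparison was fitted over all 42 runs. On simulated data with 3178 proteins, 51 of 100 changes of 0.5 and 88 of 100 changes of 1 in log2 were recovered late minus 0 h, with 9 unchanged proteins called over both sizes together. Precision rests on how many pairs a ratio has.

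The members, the 37 gene lists and the tests were chosen with earlier results of these data known. Proteins were named by rule: the 12 highest and 12 lowest late changes among called proteins whose late runs all lay on 1 side of 0 h, the 6 highest and lowest differences of 24 h from 12 h, the 5 highest and lowest slopes, up to 4 called members of each list by adjusted p (with none called, the 2 with the largest absolute change), and the markers. Not all proteins so named are reported here. A group's first gene name was used; 5321 were current symbols and 421 matched through synonyms. Promoters are RefSeq's, build GRCm38.p6. Tables and figures were made with pandas 2.3.3 and matplotlib 3.10.9 in Python 3.11.15 (numpy 2.4.6). Alternatives were other scalings, intensities in place of ratios, filters, the replicate block and leaving out each run.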

Additional observations from a re-analysis of the deposited data

Results flagged for a closer look

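The 12 proteins here were picked as the highest and lowest differences of 24 h from 12 h among those called in limma's test of that difference (log2, adjusted p under 0.05), so their sizes are a description. The linker histones went on rising: Hist1h1c by 1.56 (adjusted p = 0.000229), Hist1h1d by 1.41 (0.000313), Hist1h1b by 1.34 (0.000476) and Hist1h1e by 1.30 (0.000705). Trmt1l by 2.60 (0.00577) and Ggct by 1.45 (0.01) were higher at 24 h, but both had a value in replicate 2 alone at that time, which the fit assumes to vary like the other groups, 7.40 for Trmt1l and 2.71 for Ggct. Lower at 24 h were Nucks1 by -1.19 (0.000408), Hmgn5, a nucleosome-binding protein, by -1.03 (0.0154), and the glucocorticoid receptor Nr3c1 by -0.92 (0.0374). Qtrt1, at -1.01 (0.0361), again had 1 value at 24 h, in replicate 2. Fam126a and the tubulin cofactor Tbcb were high at 12 h alone: Fam126a was 1.12 and 1.02 at 0 h, 1.73 and 1.29 at 12 h, and 0.765 and 0.749 at 24 h, a difference of -0.98 (0.00242). Tbcb was 0.828 and 1.07 at 0 h, 1.34 and 1.76 at 12 h, and 0.657 and 0.752 at 24 h, a difference of -1.13 (0.0322), and the excess at 12 h lay in its H part (0.807 and 1.24).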

How the results depend on the processing

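Counts of calls depended on the scaling and on the runs in the fit. For late, 12 h and 24 h minus 0 h, 24 h minus 12 h and the slope over 0.5 to 9 h, no run factor left 16, 0, 49, 0 and 9 calls by limma, against 756, 228, 926, 199 and 157. At the 2 counts of 0, 119 and 96 proteins had an unadjusted p under 0.05, against 640 and 680 with the factor. Summed intensities gave 251, 23, 395, 40 and 29, and the 6 runs alone in the fit 277, 2, 495 and 0 (529 at an unadjusted p under 0.05). The replicate block gave 346 at 12 h minus 0 h, 344 at 24 h minus 12 h and 281 for the slope, and 939 late. With no run factor and the replicate block, chosen after seeing the data, the counts were 1835, 1201, 1931, 963 and 716. Subtracting H/L at 0 h gave 265 slopes. Leaving out 1 run gave 413 to 714, 85 to 246, 670 to 905 and 75 to 174 calls, with 12 h minus 0 h at 99 and 102 without replicate 1 or 2 at 0 h and 85 without replicate 2 at 12 h, and leaving out 1 replicate number gave 9 to 64 slopes. Deviations of same-numbered runs correlated at 0.035 to 0.541 over 55 pairs of times (median 0.23), and with 2 numbers this was not taken as pairing. Of 106 proteins followed by name, 15 turned sign late with no run factor, with the same values with and without the replicate block: Calr -0.014, Atp6v1a -0.015, Cat -0.024, Trappc9 -0.045, Hsp90b1 -0.054, Itgax -0.063, Ngp -0.063, Pdia3 -0.068, Hspa5 -0.096, H2-Ab1 -0.118, H2-Aa -0.139, Tbcb -0.223, Mpo -0.239, Csf1r -0.282 and Irgm2 -0.318. Summed intensities turned Mpo (-0.007), Dpp7 (-0.026), Ggct (-0.285), Trappc9 (-0.373), Irgm2 (-0.456), Fam126a (0.037), Toe1 (0.21), Qtrt1 (0.379), Hsph1 (0.599) and Cdk1 (1.075). Subtracting H/L at 0 h turned Irgm2 (-0.181). Leaving out 1 run also turned 5 named proteins of no call, whose ranges were -0.141 to 0.111 for Camp, -0.119 to 0.095 for Fam126a, -0.737 to 0.833 for Irgm2, -0.041 to 0.327 for Tbcb and -0.187 to 0.829 for Trappc9. The causes were not tested. The replicate block turned no named protein, left H2-Aa and H2-Ab1 without a call (adjusted p = 0.293 and 0.0605), and gave 3 higher and 7 lower of 70 cytosolic ribosomal proteins, 8 lower of 15 glycolytic, 7 higher of 21 NRF2 and 14 higher of 38 splicing proteins. Proteins with few peptide pairs (2 to 7 in several named) are limited by depth.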
